A study of Mus musculus with 39 samples.

Results

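The complement components described here are 9 genes, C1qa, C1qb, C1qc, C2, C4b, Cfb, C3, C3ar1 and C5ar1, measured in mouse epididymal adipose tissue, the fat depot beside the testis. They were taken by gene name from 29411 names on the array, where 12 of 40628 probes carry them. The brightest probe of each gene was used, and the dimmer probes of C2, C3 and C3ar1 served as a check. C57BL/6J mice weaned at 3-4 weeks of age were placed in 5 groups of 30 animals. The LFC group received a diet with 10% of calories from fat (11 arrays), and the HFC group received a diet with 60% of calories from fat and more sucrose (10 arrays). The other groups, HF5, HF20 and HF75, ate the HFC diet together with 5, 20 or 75 µg of KAL-1, a plant-based formulation (6 arrays each). LFC was sampled on days 1, 6, 10 and 14 and in weeks 0, 3, 6, 9, 12, 15 and 18, HFC at the same times other than day 1, and the KAL-1 groups in weeks 3 to 18. Weeks were counted from day 14, so that day 14 and week 0 are the same time on the diet. The labels name no genetic alteration, and every KAL-1 group shares the HFC diet.

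Complement is a cascade of plasma proteins that tags and lyses microbes and debris. C1q, built from the chains of C1qa, C1qb and C1qc, recognises its target and, with C4 and C2, forms the classical pathway enzyme that cleaves C3, whereas factor B (Cfb) serves the alternative pathway enzyme. The cleaved fragments of C3 and C5 act on the receptors C3ar1 and C5ar1 of myeloid cells. Macrophages are a known source of C1q, and adipose tissue makes C3 and the alternative pathway proteins.

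There was 1 array for each group and time point, 39 arrays in all. The series record speaks of 3 biological replicates. Whether an array holds RNA of a single mouse or a pool is not given in the sources used here, so the time points of a group serve as its replicates. Between groups the time point was a block, so those p-values measure how far the difference varied from time point to time point. For change with time they measure the spread of arrays within a period or about the slope. The arrays for LFC week 3 and HFC week 12 stood apart, with 97.1% and 94.5% of probes well above background and 16431 and 10531 outlier spots, against 53.7% to 79.6% and 21 to 387 on the other 37 arrays. The main differences are also given without these arrays. The arrays came from 32 slides and were scanned on 13 dates. Days 1 to 14 were scanned after every array of weeks 0 to 18, so the day arrays and the scan period cannot be told apart. LFC week 3 was scanned on another date than HFC week 3, and HF20 and HF75 of week 6 on another date than HFC and HF5 of that week. Each of the 8 adipocyte markers was well above background on arrays of every group, and the summed level of the epididymis markers, which include Lcn5 and Crisp1, ranged from -3.90 to 6.73 in LFC and from -4.17 to 6.40 in HFC on the scale defined below. In such bulk tissue, fewer cells of a type and less RNA per cell cannot be told apart.

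The probes behind the main results are shown 5′ to 3′ as 60-base oligonucleotides, because each value below is the brightness of that sequence alone. The array files leave their genome positions unmapped.
C1qa: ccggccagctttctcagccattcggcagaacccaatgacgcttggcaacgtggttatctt
C1qb: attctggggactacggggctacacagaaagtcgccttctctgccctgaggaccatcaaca
C4b: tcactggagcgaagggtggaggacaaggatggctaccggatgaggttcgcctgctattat
Cfb: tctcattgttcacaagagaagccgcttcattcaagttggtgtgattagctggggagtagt
C3: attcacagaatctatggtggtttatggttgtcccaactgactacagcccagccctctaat
C3 dimmer probe: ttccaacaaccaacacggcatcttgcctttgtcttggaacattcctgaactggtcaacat
The C4b probe lists RefSeq accessions of C4b and of its near copy C4a, as does the C4a probe, so that the transcripts of C4b and C4a cannot be told apart here.

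By the order of genes in RefSeq (GRCm38.p6), C1qb, C1qc and C1qa follow each other on chromosome 4 with 0 genes between them. On chromosome 17, C4b, Cfb and C2 share the complement gene cluster, with 11 genes between C4b and Cfb and 1, Mir6972, between Cfb and C2, while C3 is on the same chromosome with 640 genes between it and C2. C3ar1 is on chromosome 6 and C5ar1 on chromosome 7. RefSeq promoters, from 250 bases before to 50 after the gene start, were at hand for 5 members (C1qb, C1qc, C3, C3ar1 and C5ar1). They were searched on both strands for the core of the myeloid factor PU.1 (GAGGAA), the STAT element GAS (TTCNNNGAA) and a C/EBP motif (TTGCNNAA). Of 32851 promoters of that length, 28.3% held the PU.1 core, 8.30% the GAS and 10.8% the C/EBP motif. The 250 bases before the start of the 3 genes with a match are shown with the match in capitals, which is the PU.1 core in C1qb, its reverse complement in C1qc and the C/EBP motif in C3.
C1qb, chr4:136886201-136886450, minus strand: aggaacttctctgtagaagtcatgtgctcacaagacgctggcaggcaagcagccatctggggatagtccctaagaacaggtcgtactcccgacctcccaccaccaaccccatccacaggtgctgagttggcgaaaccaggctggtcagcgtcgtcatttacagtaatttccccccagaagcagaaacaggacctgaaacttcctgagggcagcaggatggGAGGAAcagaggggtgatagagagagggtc
C1qc, chr4:136892915-136893164, minus strand: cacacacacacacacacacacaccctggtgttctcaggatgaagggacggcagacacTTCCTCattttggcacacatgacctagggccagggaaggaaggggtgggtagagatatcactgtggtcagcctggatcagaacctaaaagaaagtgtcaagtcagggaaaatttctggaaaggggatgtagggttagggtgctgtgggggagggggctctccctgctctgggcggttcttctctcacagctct
C3, chr17:57228137-57228386, minus strand: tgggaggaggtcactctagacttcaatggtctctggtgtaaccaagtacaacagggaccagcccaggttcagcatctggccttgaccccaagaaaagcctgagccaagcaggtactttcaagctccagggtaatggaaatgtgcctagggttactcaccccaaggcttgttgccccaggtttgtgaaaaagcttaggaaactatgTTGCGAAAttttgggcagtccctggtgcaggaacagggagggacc
The match began at -30 from the gene start in C1qb, at -193 in C1qc and at -45 in C3. No GAS was found in the 5 promoters, and C3ar1 and C5ar1 held none of the 3 motifs. A match is a description of these letters and not a bound site.

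Levels are given as log2 of the processed signal minus the 75th percentile of the same array, so that 0 is the brightness of the array's 75th percentile and 1 unit is a factor of 2. Each gene is read against itself, since probes differ in brightness for reasons other than RNA level.

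**Figure D1:**
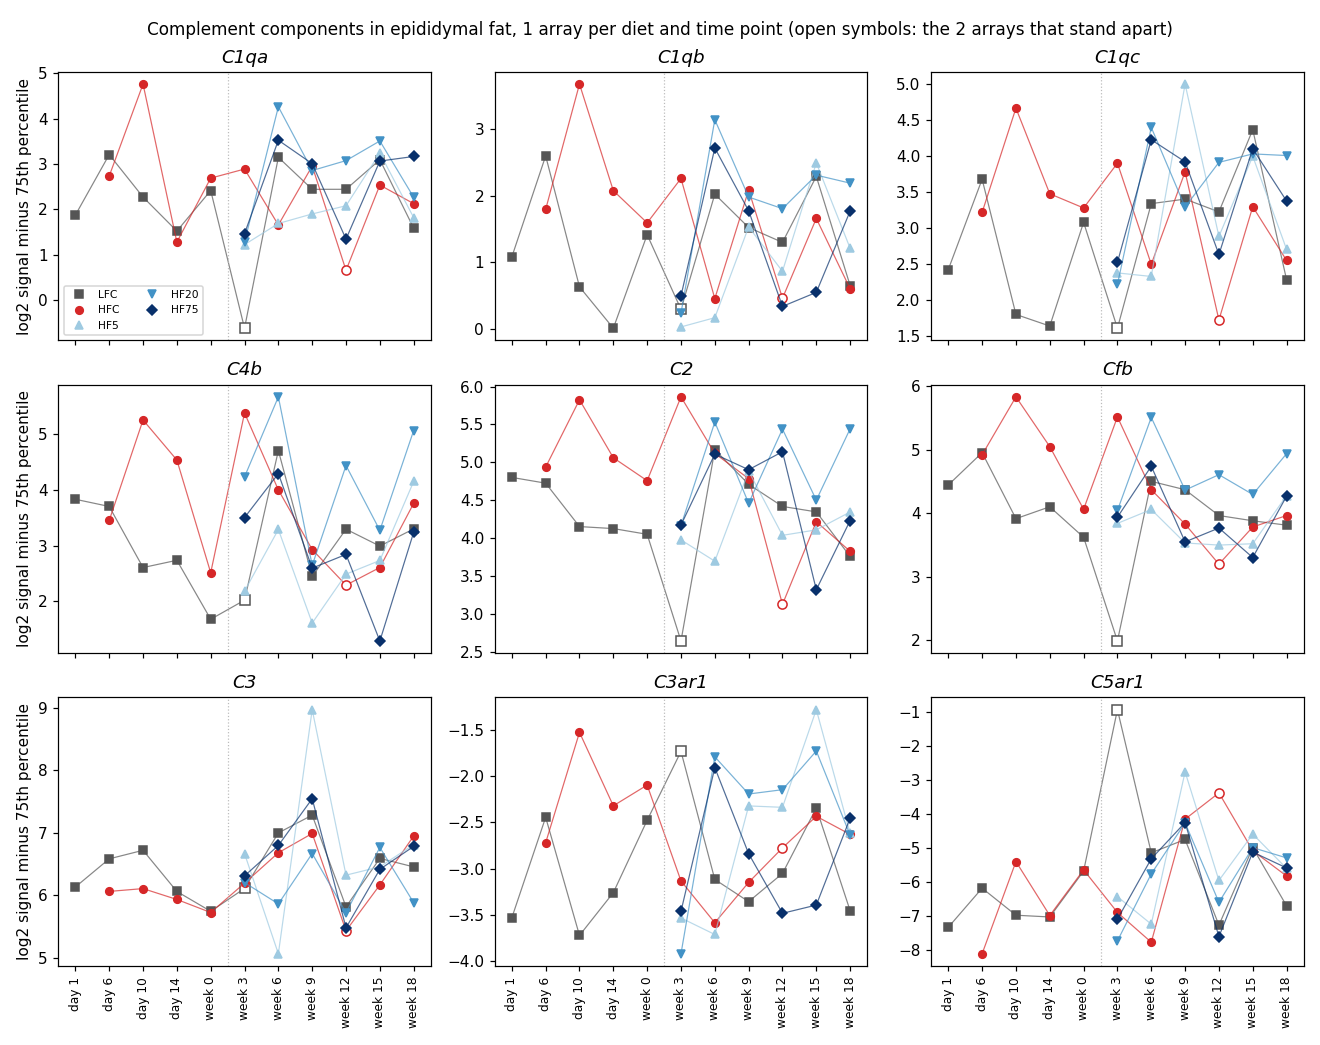
Level of each complement component (log2 signal minus the array's 75th percentile, vertical axis) at each time point (horizontal axis) in the 5 groups. Points are single arrays, and open symbols mark LFC week 3 and HFC week 12, the arrays that stood apart. The groups overlap in every panel, and the C1q genes of HFC are highest on day 10.

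The C1q chains varied widely from array to array within every group. C1qa lay between -0.62 and 3.21 in LFC, with a median of 2.41. The lowest of these was LFC week 3, an outlier spot, and without it the lowest was 1.52. HFC ran from 0.65 in week 12 over a median of 2.61 to 4.76 on day 10, and from 1.28 without week 12. The KAL-1 groups fell inside this range, with medians of 1.86 in HF5, 2.96 in HF20 and 3.03 in HF75. C1qb had medians of 1.30 in LFC (0.01 to 2.60), 1.73 in HFC (0.46 to 3.68), 1.04 in HF5 (0.03 to 2.49), 2.09 in HF20 (0.24 to 3.14) and 1.16 in HF75 (0.34 to 2.72). The highest HFC array was again day 10. C1qc had medians of 3.08 in LFC (1.61 to 4.37), 3.29 in HFC (1.73 to 4.67, and from 2.50 without week 12), 2.80 in HF5 (2.33 to 5.00), 3.96 in HF20 (2.22 to 4.40) and 3.65 in HF75 (2.53 to 4.23). Its highest value of all was HF5 in week 9, the array with the lowest share of probes well above background, 53.7%.

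The classical pathway gene C4b spanned 1.68 to 4.71 in LFC with a median of 2.99, and 2.29 (2.51 without week 12) to 5.39 in HFC with a median of 3.61. The highest HFC arrays were week 3 and day 10, at 5.39 and 5.26. Among the KAL-1 groups, HF20 had a median of 4.34 (2.64 to 5.68), HF75 of 3.04 (1.28 to 4.30) and HF5 of 2.61 (1.61 to 4.16). C2, the protease that joins C4 in the classical pathway enzyme, had medians of 4.35 in LFC (2.64 to 5.17) and 4.86 in HFC (3.13 to 5.87). Its medians were 4.07 in HF5, 4.97 in HF20 and 4.57 in HF75. Cfb, the protease of the alternative pathway, had medians of 3.96 in LFC (1.99 to 4.95), 4.21 in HFC (3.20 to 5.83), 3.68 in HF5, 4.48 in HF20 and 3.85 in HF75. For C2 and Cfb the lowest LFC array was week 3 and the lowest HFC array week 12, both of the arrays that stood apart. Without them the lowest values were 3.76 in LFC and 3.83 in HFC for C2, and 3.62 in LFC and 3.78 in HFC for Cfb. The C2 and Cfb spots of HFC day 10 were saturated.

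C3, on which the pathways converge, was close to the top of the scanner's range. Its brightest probe was saturated on 28 of 39 arrays, of which 8 were LFC, 8 HFC, 3 HF5, 5 HF20 and 4 HF75. Its medians, 6.46 in LFC, 6.14 in HFC, 6.56 in HF5, 6.04 in HF20 and 6.60 in HF75, are therefore bounded from above. The dimmer C3 probe was saturated on none and had medians of -2.57 in LFC (-4.20 to -1.58), -2.73 in HFC (-3.75 to -0.65), -2.15 in HF5 (-5.42 to -0.65), -2.0 in HF20 (-4.47 to -0.74) and -2.60 in HF75 (-4.98 to -1.61). Across 37 arrays both C3 probes correlated with r = 0.31. The dimmer probe had r = 0.72 with C1qb and 0.68 with C3ar1, given as descriptions.

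The receptors were dim. C3ar1, the receptor of the C3a fragment, had medians of -3.12 in LFC (-3.72 to -1.73), -2.67 in HFC (-3.58 to -1.53), -2.48 in HF5 (-3.71 to -1.28), -2.17 in HF20 (-3.92 to -1.73) and -3.12 in HF75 (-3.48 to -1.91). The highest LFC value of C3ar1 was the outlier spot of week 3, and without it the highest was -2.35. C5ar1, the receptor of C5a, was well above background on only 20 of 39 arrays, 4 of LFC, 5 of HFC, 3 of HF5, 5 of HF20 and 3 of HF75. Its medians lay between -6.17 in LFC (-6.43 without week 3) and -5.44 in HF75 and were not tested over the 10 time points of HFC and LFC, since it failed the filter on dim probes there.

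The HFC diet was compared with LFC at 10 time points to ask whether these genes differ under a diet rich in fat and sucrose. Of the 8 members tested, 6 were higher in HFC, with a median difference of 0.42 on the log2 scale against 0.03 over all 29168 probes. None passed an adjusted p of 0.05, with 0% of all probes called, and none had an unadjusted p below 0.05, against 3.05% of all probes. The values of HFC and LFC overlapped for every member.

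C4b had the largest of these differences, at 0.73 (SE 0.419, 95% confidence interval -0.18 to 1.64), a fold of 1.65, with HFC higher at 6 of 10 time points. Its limma adjusted p was 0.998, the value of every member in this comparison. C2 differed by 0.54 (SE 0.357) and was higher at 7 of 10 time points. Cfb differed by 0.54 (SE 0.377) and was higher at 5 of 10. Without the arrays that stood apart these differences were 0.61 for C4b, 0.44 for C2 and 0.33 for Cfb. C3ar1 was higher in HFC by 0.44 (SE 0.270) at 6 of 9 time points. C1qc differed by 0.40, C1qb by 0.22 and C1qa by -0.08, with intervals from -0.53 to 1.32, -0.75 to 1.19 and -0.93 to 0.76. The sign of C1qa turned without the arrays that stood apart (0.13) and when outlier spots were kept (0.28). C3 differed by -0.21 (-0.56 to 0.14) and was lower in HFC at 8 of 10 time points, while its dimmer probe differed by 0.19.

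The single time points show where these averages came from. On day 10, HFC exceeded LFC by 2.49 for C1qa, 3.04 for C1qb, 2.87 for C1qc, 2.65 for C4b, 1.67 for C2, 1.92 for Cfb and 2.19 for C3ar1. On that day the brightest C3 probe was lower by 0.61 in HFC, and the dimmer C3 probe was higher by 2.84. The macrophage markers (11 genes, among them Cd68 and Csf1r) had their highest summed level of HFC on the same array, 6.65, as did the epididymis markers, 6.40. Their part in the day 10 values was not tested. Without day 10 the difference over the remaining time points was -0.40 for C1qa and -0.14 for C1qb. In week 3 the difference was 3.51 for C1qa, 3.37 for C4b, 3.22 for C2 and 3.53 for Cfb, and it rests on the LFC array that stood apart. Without week 3 the HFC minus LFC difference was 0.43 for C4b, 0.24 for C2 and 0.21 for Cfb. Only in week 3 did HFC and LFC lack a shared scan date, so these are also the values with scan date as the block. In week 6 the C1q chains went the other way, at -1.49 for C1qa, -1.57 for C1qb and -0.84 for C1qc.

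Among weeks 3 to 18 alone, 5 of 9 members were higher in HFC than in LFC, with a median of 0.27 against 0.06 over all probes, and 0 were called against 0% of all 31450 probes, or 0 against 2.31% without adjustment. Without the arrays that stood apart 4 of 9 were higher, with a median of -0.0058, and Cfb went from 0.36 to 0.12 and C5ar1 from 0.53 to -0.15. KAL-1 was then compared with the HFC diet alone in the same weeks, with all 5 groups in 1 model. Each dose shares the same HFC arrays, so the comparisons are not independent. No member was called at any dose, with 0% of all probes called for HF5, HF20 and HF75. At an unadjusted p below 0.05 the count was 0 members at each dose, against 3.42% of probes for HF5, 4.84% for HF20 and 1.5% for HF75, and without HFC week 12 it was 1 for HF5, C4b. For the mean of the 3 doses 0 members were called against 0% of probes, and 0 against 1.75% without adjustment.

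HF20 was the group in which most members lay above HFC, 7 of 9, with a median difference of 0.55 against -0.07 over all probes. The differences were 0.74 for C1qa (-0.14 to 1.61), 0.69 for C1qb (-0.29 to 1.67), 0.68 for C1qc (-0.20 to 1.57), 0.73 for C4b (-0.16 to 1.62), 0.43 for C2, 0.52 for Cfb and 0.55 for C3ar1, with limma adjusted p-values of 0.780 to 0.902 over the 9 members. C3 and C5ar1 differed by -0.22 and -0.26 and turned positive with the array median as the scale (0.14 and 0.10). Without HFC week 12, an array that stood apart, the differences were 0.49 for C1qa, 0.60 for C1qb, 0.48 for C1qc, 0.50 for C4b and 0.11 for C2, and C5ar1 turned to 0.39. Week 6 weighed heavily on the C1q chains. In that week HF20 exceeded HFC by 2.61 for C1qa, 2.68 for C1qb, 1.90 for C1qc, 1.67 for C4b and 1.79 for C3ar1, and HF20 and HF75 were scanned on another date than HFC. The macrophage markers also had their highest summed level of HF20 in week 6, 7.08. The summed level of 5 mesothelium markers, among them Msln and Wt1, was lowest in week 6 in HFC (-0.35). It was lowest in that week in LFC (0.10), HF5 (-2.30) and HF75 (-0.61) too, but in week 3 in HF20 (0.90). Without week 6 the HF20 difference was 0.37 for C1qa, 0.29 for C1qb, 0.44 for C1qc and 0.30 for C3ar1. With scan date in place of time point as the block it was 0.50, 0.35, 0.45 and 0.28. The parts of the scan date and of the marker levels in these values were not tested.

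HF5 went the other way for C4b, which was 0.75 lower than in HFC (-1.64 to 0.14), and 4 of 9 members were higher, with a median of -0.15 against -0.03. HF75 had 5 of 9 members higher, with a median of 0.02 against -0.01. C4b differed by -0.54 and C1qc by 0.51 in HF75. Limma adjusted p-values ran from 0.954 to 0.990 for HF5 and were 1.00 for HF75. Without HFC week 12 the C4b difference was -0.98 in HF5 and -0.76 in HF75, and that of C1qb in HF75 was -0.07 in place of 0.02. In week 3 the C1q chains, C4b, C2 and Cfb lay below HFC at all 3 doses, with C4b differences of -3.20 in HF5, -1.15 in HF20 and -1.88 in HF75.

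**Figure D2:**
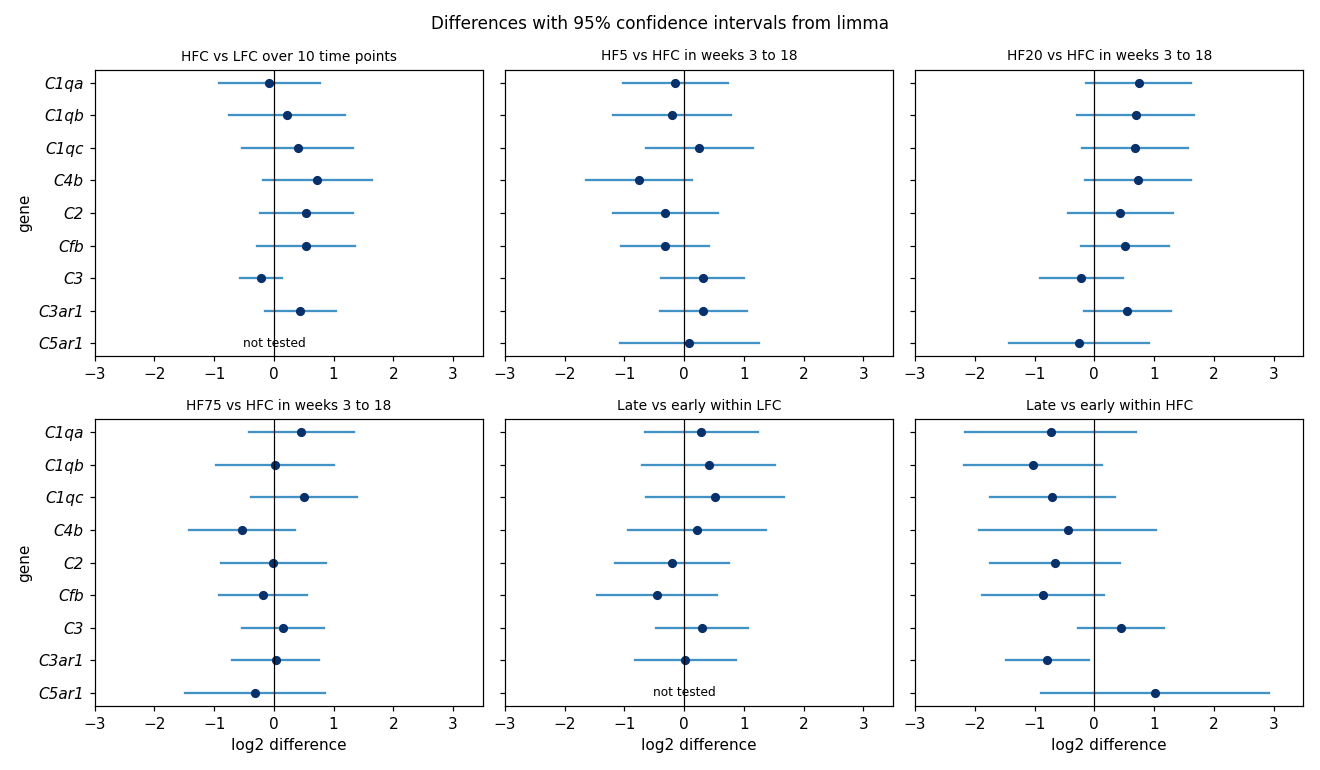
Difference in log2 signal (horizontal axis) with its 95% confidence interval from limma for each complement component in 6 comparisons (panels). Every interval between diets includes 0, and the interval of C3ar1 for late against early within HFC lies below 0.

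Across all 5 groups in weeks 3 to 18, C4b had the widest range of group means, 1.48 on the log2 scale, from 2.74 ± 0.89 (SD, n = 6) in HF5 to 4.22 ± 1.12 (SD, n = 6) in HF20. Its F test gave an unadjusted p of 0.0192 and a limma adjusted p of 0.716, and it was the only member below an unadjusted 0.05, against 5.75% of all probes. Without the arrays that stood apart the C4b range was the same, with a limma adjusted p of 0.675, and 2 members, C4b and Cfb, were below an unadjusted 0.05. Over all alternatives the limma adjusted p of C4b ran from 0.376 to 0.923. None was called, against 0% of probes. HF20 had the highest mean for C1qa, C1qb, C1qc, C4b, C2, Cfb and C3ar1 by the brightest probe. The dimmer C2 probe was highest in HF20 as well, but the dimmer C3ar1 probe was highest in HF75 (-3.56), with HF20 next (-3.84). The order of C3 depended on the probe, since the saturated brightest probe was highest in HF5, where week 9 reached 8.97, and the dimmer probe in HF20 (-2.18, against -2.61 in HF5). C5ar1 had its highest mean in HF5, where it was well above background on 3 of 6 arrays. The order of group means has 4 gaps between neighbours for each gene, 36 in all. In none of them did the means differ by more than the larger of the SDs. These SDs include the spread between weeks, which the fits block out, so this is a description and not a test.

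Change with time was examined in the 5 groups together and within LFC and HFC. Over weeks 3 to 18, C3ar1 had a slope of 0.053 log2 units per week (SE 0.0238, limma adjusted p = 0.469), or 0.0527 without the arrays that stood apart, and its dimmer probe had 0.020. The other members had slopes between -0.025 and 0.0695. C3ar1 was the only member below an unadjusted 0.05, against 9.89% of all probes, and 0 members were called, against 0.0413%. Within HFC the later weeks lay below days 6, 10 and 14 and week 0 for 7 of 9 members, with a median of -0.70 against 0.03 over all probes. C3ar1 averaged -2.17 ± 0.50 (SD) early and -2.95 ± 0.42 late, a difference of -0.78 (SE 0.314, limma adjusted p = 0.265). C1qb differed by -1.03, Cfb by -0.86 and C1qa by -0.73 with limma adjusted p-values of at most 0.728 over the 9 members. Without HFC week 12 these differences were -0.82 for C3ar1, -0.87 for C1qb, -0.67 for Cfb and -0.43 for C1qa. In this comparison 0 members were called against 0% of probes, and C3ar1 alone was below an unadjusted 0.05, against 16.8%. Without HFC week 12 the brightest C3 probe was below it too, at 0.64. Within LFC, 6 of 8 members were higher late, between -0.45 and 0.51, and 0 were called against 0.49% of probes, with 0 against 5.52% at an unadjusted p. Most early arrays were scanned after all others, and with week 0 as the only early array the C4b difference in HFC was 0.98 in place of -0.45.

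The change of the HFC minus LFC difference between these periods was largest for C1qb, at -1.62 (SE 0.782, limma adjusted p = 0.841). C1qc had -1.19, C1qa -1.07, C4b -0.89 and C3ar1 -0.66, and C3 alone of the 8 was positive, at 0.18, where its dimmer probe gave -1.40. Without the arrays that stood apart the values were -1.54 for C1qb, -1.30 for C4b, -0.89 for C2 and -0.97 for Cfb, the last 2 from -0.57 and -0.46. None was called against 0% of 29168 probes, and 0 members were below an unadjusted 0.05 against 5.14%, or 1, C2, without the arrays that stood apart.

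Across arrays, many of the components varied together. Over the 37 arrays other than LFC week 3 and HFC week 12, 20 of 36 pairs had an adjusted permutation p below 0.05 by Pearson's r and 18 by Spearman's rho. The share of pairs of all probes that would pass was not computed. Of 18692 probes well above background on all 37 arrays, between 1.23% (C3ar1) and 11.2% (Cfb) had r over 0.5 with a given member. The arrays share time points and scan dates, so r is also given for deviations from the mean of the time point (36 arrays) and within the day and week arrays.

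**Figure D3:**
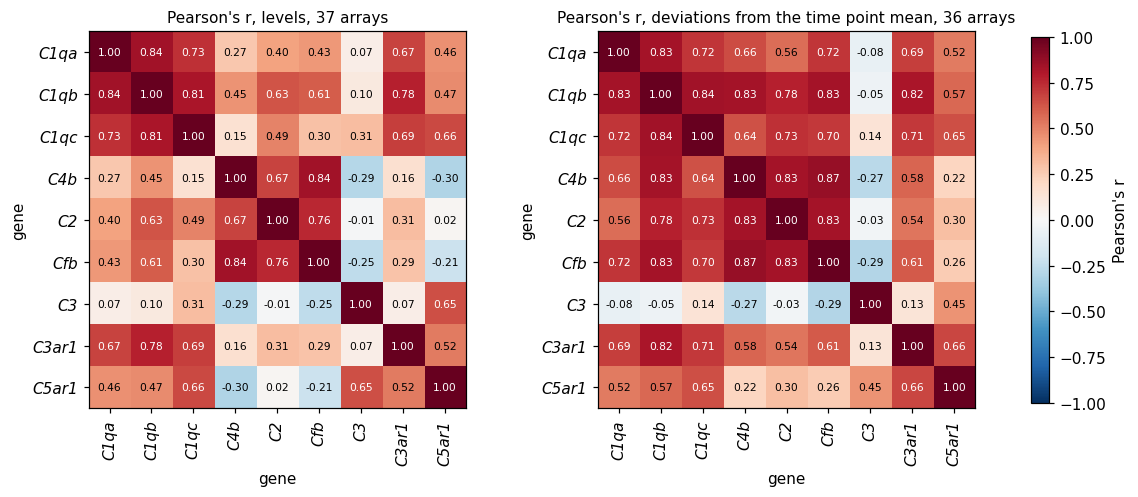
Pearson's r between the complement components over 37 arrays (left) and over deviations from the time point mean in 36 arrays (right), as colour and number. On the left the C1q genes with each other, C4b with C2 and Cfb, and C3ar1 with the C1q genes have the high values, on the right C1q with C4b, C2 and Cfb is high as well (0.56 to 0.83), and the brightest C3 probe is at 0.31 or below with every gene other than C5ar1 in both.

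C1qa, C1qb and C1qc correlated with r of 0.73 to 0.84 (rho 0.75 to 0.82, permutation adjusted p of at most 4.5e-05). On deviations from the time point the range was 0.72 to 0.84, within the arrays of weeks 0 to 18 (n = 30) it was 0.75 to 0.87, and within the day arrays (n = 7) 0.73 to 0.99. Without the 2 arrays farthest from the median it was 0.68 to 0.78. C4b, C2 and Cfb correlated with r of 0.67 to 0.84 (rho 0.58 to 0.79), with 0.83 to 0.87 on deviations and 0.59 to 0.79 without the 2 arrays farthest from the median. Between C1q and C4b, C2 and Cfb, r ran from 0.15 to 0.63 and 6 of 9 pairs passed, but on deviations it ran from 0.56 to 0.83 and 9 of 9 passed, overlapping the values within each group of genes. C3ar1 had 0.67 to 0.78 with C1q, passing in 3 of 3 pairs. With C4b, C2 and Cfb it had 0.16 to 0.31, passing in 0 of 3, and on deviations 0.54 to 0.61, passing in 3 of 3, with 0.85 to 0.96 within the day arrays. C5ar1 had 0.46 to 0.66 with C1q and -0.30 to 0.02 with C4b, C2 and Cfb. The brightest C3 probe passed with C5ar1 alone, at 0.65, but that pair had 0.26 under quantile scaling and 0.45 on deviations and passed in neither, while under quantile scaling C3 passed with C1qb (0.47), C1qc (0.38), C2 (0.37) and C3ar1 (0.36). The C3 probe was saturated on most arrays, and C5ar1 was not well above background on 19 of the 39 arrays.

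**Figure D4:**
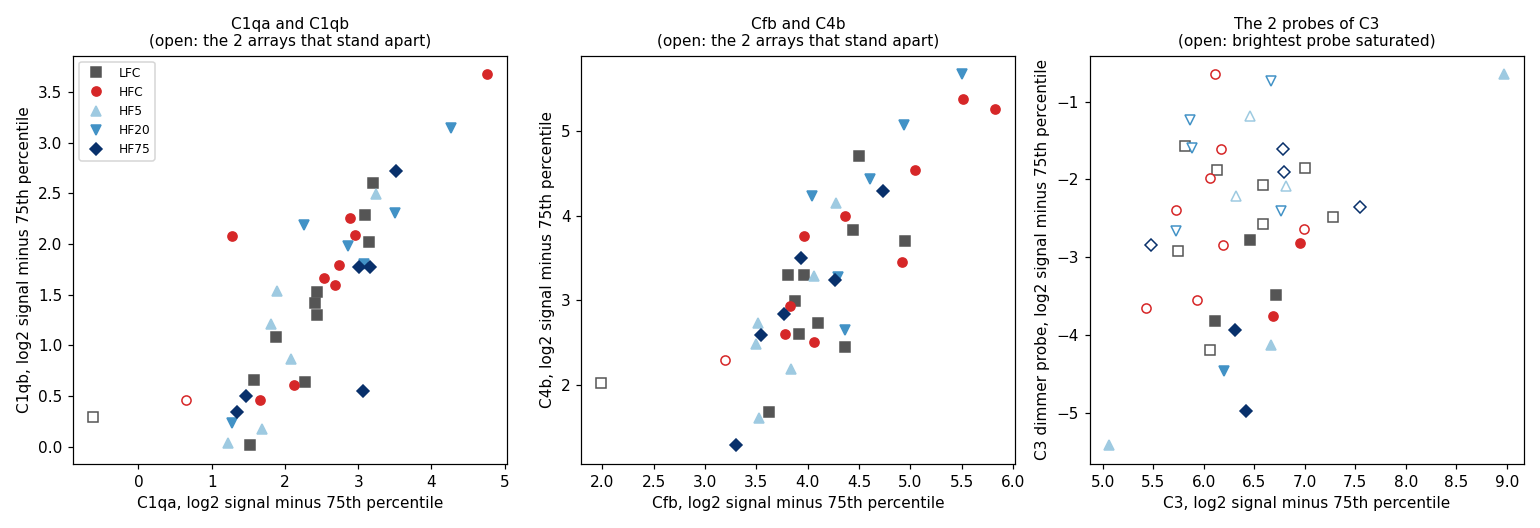
Levels of pairs of probes on the same arrays (log2 signal minus the array's 75th percentile on both axes): C1qa with C1qb, Cfb with C4b, and the brightest with the dimmer C3 probe. Open symbols are the arrays that stood apart in the first pairs and arrays with a saturated brightest C3 probe in the last. The C1q and the Cfb with C4b pairs rise together, whereas the C3 probes share little of their variation.

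The genes whose pattern was most like each member were read from 18692 probes well above background on all 37 arrays, as descriptions. C1qb had r = 0.93 with Csf1r, the receptor of the macrophage growth factor, 0.90 with Tbxas1 and 0.88 with Pld4. C1qa was most like Msr1 (0.88), Alox5ap and Cd68 (both 0.85 after rounding), of which Msr1 is a macrophage scavenger receptor, and C1qc like Lilrb3 (0.94) and Tbxas1 (0.92). C3ar1 shared Tbxas1 (0.82), Csf1r (0.80) and Msr1 (0.79). C4b was most like Serpina3n (0.83), an acute-phase protease inhibitor, C2 like Itfg3 (0.85) and Cfb like P2rx4 (0.83). C5ar1 was most like Cybb (0.83), a subunit of the phagocyte oxidase. The brightest C3 probe was most like Dcn (0.91), whose probe was saturated on 34 arrays. Only 1.72% of the probes had r over 0.5 with C1qa and 1.23% with C3ar1, against 9.53% with C4b and 11.2% with Cfb.

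Correlation with the mean level of each marker list was added after seeing the data, over the same 37 arrays and as 81 relations. The mean of the 11 macrophage markers had r of 0.81 with C1qa, 0.80 with C1qb, 0.87 with C1qc, 0.82 with C3ar1 and 0.72 with C5ar1 (rho 0.75 to 0.88, permutation adjusted p of 0.000162 for each r). With C2, C4b and Cfb it had 0.35, 0.12 and 0.20, none of which passed, yet on deviations from the time point mean these were 0.68, 0.70 and 0.73. The mean of 11 genes known to act on complement transcription, among them Il6, Stat3 and Cebpb, had r of -0.56 with C4b, -0.57 with C2 and -0.62 with Cfb, and 0.55 with the brightest C3 probe (permutation adjusted p of 0.0015 to 0.0032). By rank the relation to C2 did not pass, at rho -0.31. On deviations this list had r of -0.69 with C4b and -0.73 with C2 and Cfb, and also -0.43 with C1qa, -0.59 with C1qb and -0.60 with C1qc. The same list had r of 0.53 with C5ar1 (permutation adjusted p = 0.0064), which was -0.02 on deviations, and the fibroblast list had 0.47 with C3 (0.0258). Adipocyte markers had 0.45 with C4b and 0.44 with Cfb (permutation adjusted p of 0.0366 and 0.0416). Saturated probes were part of these means, such as Nfkbia on 20 of 39 arrays among the 11 genes acting on complement. Dcn of the fibroblast list was saturated on 34 and Fabp4 of the adipocyte list on 39. The epididymis markers had r between -0.18 and 0.22 with the 9 members. Mesothelium markers passed with none of the 9 by r, and with C1qb and C3ar1 by rank (rho 0.46 and 0.42). On deviations they had r of 0.54 to 0.62 with the C1q chains and 0.56 to 0.73 with C4b, C2 and Cfb. By rank the lymphoid markers passed with C1qb, C1qc and C5ar1 (rho 0.43, 0.42 and 0.44) and the liver markers with C1qa (rho -0.43). Neither list passed with a member by r, and the neutrophil markers passed with none by r or by rank. Liver markers are relevant because the liver makes most plasma complement. Their summed level ranged from -3.96 to 4.22 in LFC, with the highest value in week 3. In HFC it ranged from -5.02 to 2.01, with the highest in week 12. Both are the arrays that stood apart, with nearly all probes well above background. Of the liver markers, Alb was well above background on 35 of 39 arrays, Fgb on 20, Apoa1 on 9, Apob on 2 and Ttr on 0. Liver RNA and raised signal of dim probes cannot be told apart here. Of the macrophage markers 10 of 11 were higher in HFC than in LFC, with a median of 0.59 and none called, and their part in the differences of the C1q chains and C3ar1 was not tested.

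Of 43 other complement genes, 42 were on the array and 33 were tested for HFC against LFC. None was called, here or in any other comparison as fitted, and 16 were higher in HFC, with a median of -0.0049 against 0.03 over all probes. The 3 with the smallest p were Itgax, Cfi and C4a. Itgax, a chain of complement receptor 4, had 1.11 (SE 0.360), with HFC higher at 8 of 10 time points. Cfi, the protease that inactivates C3b and C4b, had -1.98. C4a had 0.73, with HFC higher at 9 of 10 time points. Its probe differs in sequence from the C4b probe but lists accessions of both genes. Without the arrays that stood apart these were 0.86 for Itgax, -0.68 for Cfi and 1.07 for C4a, so that the size of the Cfi difference rests on those arrays. With normexp background correction C4a had -0.32, the other sign. The C4a probe was well above background on 23 of 39 arrays, that of Cfi on 36 and that of Itgax on 39.

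Cfi also led the comparisons of weeks 3 to 18. HFC minus LFC was -3.49 for Cfi, negative at 6 of 6 time points, or -2.75 without the arrays that stood apart, with Itgax at 1.21 and C4bp at -3.22 next. The mean of the KAL-1 doses lay above HFC for Cfi by 1.57 at 6 of 6 time points, with Cd55b, which protects cells from complement, at -1.10 and Cr2 at -1.21. For HF5 the smallest p belonged to Cd55b (-1.65), Masp1 (-1.55) and C6 (-0.997). For HF20 they were Fcna (1.00), Masp1 (-1.37) and Cr2 (-1.30), and for HF75 Cfi (1.92), Itgax (-1.05) and C1s1 (-0.65). Limma adjusted p-values were between 0.780 and 1.00 in all of these. Among the 5 groups, the widest ranges of means by smallest p were 3.49 for Cfi, 2.13 for Masp1 and 1.48 for Itgax. Some of these probes were dim, with Cr2 well above background on 17 of 39 arrays, Masp1 on 18, Cd55b on 20 and C4bp on 29. Their differences are near background on many arrays. Those of Cfi, C6, Fcna, C1s1 and Itgax were well above background on 36 to 39.

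With time, Vsig4, a macrophage receptor for C3 fragments, had a slope of 0.203 per week (limma adjusted p = 0.281), the ficolin Fcna 0.114 and Cr1l 0.0447. Within LFC the late minus early differences were 1.29 for C6, 2.50 for Vsig4 and 1.47 for Fcna. Within HFC they were -5.00 for Cfi (limma adjusted p = 0.210), -2.92 for Cpn1 and 0.94 for Cd46. Under alternatives some of these were called, namely Vsig4 and Fcna for the slope with array weights (limma adjusted p of 0.0371 and 0.0392), Cfi, Cpn1 and Cd46 within HFC with array weights (0.0156, 0.0235 and 0.0239), Cfi there with median scaling (0.0414), and Cfi and Cpn1 there without week 0 (0.0276 and 0.0347). Array weights called 235 of all 31450 probes for the slope, against 13 as fitted. Within HFC they called 6851 of 30581, against 0 as fitted, and median scaling called 47. These calls are therefore not particular to complement genes. Counts without each time point are given in the last section. The change of the HFC minus LFC difference with period was -1.89 for Fcna, -3.78 for Cfi and -1.43 for C6, and that of Cfi was -1.94 without the arrays that stood apart. The summed level of the liver markers, most of them dim, moved with those arrays, as given above. Its part in the Cfi values was not tested. The Cpn1 probe was well above background on 14 of 39 arrays, Cd46 on 20 and Vsig4 on 28, whereas Cfi, C6, Fcna and Cr1l were so on 36 to 39.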

How the data were processed

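RNA of epididymal fat was labelled with Cy3 and hybridised to 1-colour Agilent arrays. The authors deposited scanner intensity values, background-subtracted by Feature Extraction (9.1 in the submitters' processing notes, 10.5.1.1 per the file headers, annotated on mm9). The deposited table of the authors' own log2 fold changes was not used. Week 9 files hold 3 significant digits, others 7. Here log2 intensity minus the array's 75th percentile was taken, control spots were left out and spots of a probe averaged. Outlier spots were left out of the fits but kept in levels of single arrays, group medians and differences at single time points. Probes had to be well above background on 10 of 20 arrays (HFC against LFC), 6 of 30 (weeks 3 to 18), 5 in LFC or 4 in HFC. limma 3.58.1 (R 4.3.3, lmFit and eBayes) had the time point as block, or the diet for the trend, with Benjamini-Hochberg over all probes tested. Correlations used 100000 permutations (scipy 1.17.1), with 1e-05 as the smallest p. Intervals are 95%. Named genes are all members, the 3 other complement genes with the smallest p in each comparison, and the 3 genes most like each member. The members and lists were chosen with earlier results of these data known. The fit was tested on simulated data. The number of arrays limits the precision.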

Additional observations from a re-analysis of the deposited data

How the results depend on the processing

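Of 1768 values of the complement components under 31 alternatives (normexp, other scalings and filters, array weights, arrays left out, other blocks and probes), 1650 kept their side of the threshold within the spread, 117 moved by more, 1 became significant and 0 reversed a call, while 142 of 1735 changed sign, 9 of 173 for HFC against LFC. The F test over 5 groups is part of the 1768 and the 1735. Its values have no SE, so they counted as kept unless called, and its range of means cannot change sign. No component was called as fitted, so there was no call to lose. The trend over days is a slope per day that was set beside a late minus early difference, so its label compares unlike units. With no replicate block, HFC against LFC had 0 probes called and 386 below an unadjusted 0.05 in place of 889, and the methods' t-test had 928 and 0 after adjustment. The trend over weeks, 13 probes, had 2 with normexp, 0 with median scaling, 4 with quantile scaling, 2 when every array had to be well above background, 235 with array weights, 33 without both arrays that stood apart, 0 with scan date and 4 with slide as a random block, and 0 to 673 without each time point. Late against early within LFC, 149 probes (82 higher), had 0 with normexp, 78 (54 higher) with median scaling, 67 (42 higher) with quantile scaling, 82 with outlier spots kept, 40 with the stricter background filter, 291 with array weights, 0 with week 0 as the only early array, 0 as a trend over days and 47 to 210 without each time point. Within HFC, 0 probes became 47 (0 higher) with median scaling, 6851 with array weights, 1 with week 0 alone and 0 to 744 without each time point, and 1 component was called with array weights, Cfb at -1.16 (limma adjusted p = 0.0407, from there to 1.00 over its alternatives). For the change of the HFC minus LFC difference, array weights gave 1 probe and week 0 alone 1, and the mean of the KAL-1 doses had 0 to 1 without each time point. Median scaling moved the median over all probes from -0.07 to 0.24 for HF20 and from 0.03 to -0.18 within HFC. Correlated pairs numbered 21 with all 39 arrays, 24 with quantile scaling and 25 on deviations, against 20. Slide and scan date as random blocks were not run for late against early. The cause of these changes was not tested.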
